A study of Mus musculus with 19 samples.

Results

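The 15 Mb of mouse chromosome 11 that surround the tumor suppressor gene Trp53 were examined probe by probe on array comparative genomic hybridization (aCGH) microarrays. The probes were taken by position, as every non-control probe lying between 62 and 77 Mb of chromosome 11 in the mm9 build. The rule took 1826 of the 221455 autosomal probes of the array, at a median distance of 6.78 kb from one another. DNA of 10 liver tumors and 9 unaffected livers from 9 mice was labelled with Cy5 and hybridized, 1 sample per array, against Cy3-labelled liver DNA of a control animal of the opposite sex. Each value is a log2 aCGH ratio of sample over control, centred on the autosomal median of its array, so that 0 stands for the level of the average autosomal probe.

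All 9 mice carried a floxed Mad2 gene on both chromosomes, Mad2(f/f), together with Albumin-Cre, on the same labelled strain background as the control DNA. They differed at Trp53. Mice 2430 and 6199, labelled p53(f/f), were females aged 16.9 and 12 months and each gave 1 hepatocellular adenoma (HCA). Mice 5884 and 5901, labelled p53(f/+), were females aged 14.2 and 12 months and also gave 1 HCA each. Mice 6240, 6487, 6565, 6602 and 6642, labelled p53ser246+ and called R246S here, were aged 12.3 to 16.2 months and gave 6 hepatocellular carcinomas (HCC), 2 of them from mouse 6240. Of the R246S mice 2 were female and 3 male. HCA therefore came with the floxed genotypes and HCC with R246S, and tumor type and genotype cannot be told apart. All floxed mice were female and so were measured against male control DNA. The Albumin promoter directs Cre to hepatocytes, so the floxed alleles are left intact in the other cells of a liver or tumor, and each mouse line stands in these data for only 2 to 5 animals. Nothing in the labels says how the R246S allele was inserted.

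Trp53 encodes p53, the transcription factor that halts or kills cells after DNA damage or faulty chromosome segregation. A floxed allele is left whole until Cre removes the segment between its loxP sites, which for a CGH probe inside that segment means fewer copies to bind. An allele made in stem cells of one mouse strain and bred onto another also keeps a stretch of the donor strain around it, and where the strains differ in sequence or copy number a CGH probe in that stretch can bind differently. The Nlrp1 genes, which lie on the same chromosome arm and encode sensors that assemble inflammasomes, are a cluster known to vary in sequence and gene content between mouse strains.

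The sex labels fitted the arrays. The median ratio of X chromosome probes was 0.32 to 1.09 on the 13 arrays of female mice and -1.08 to -0.90 on the 6 arrays of male mice. The SD over the probes of the region was 0.22 to 0.52 per array, and between 97.8% and 100% of these probes were well above background in both channels. The arrays were scanned on 3 days, and 3 floxed livers had day 1, 4 R246S livers had day 3 and 1 liver of each class had day 2.

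At 1 of the 5 probes of the Trp53 interval, 3 of the 4 HCAs lay below all HCCs. The comparison asked whether the segment that Cre removes was lost from the tumors. The interval set around the gene held 5 probes, running from 69391172 to 69407070 on chromosome 11. At the middle probe, A_53_P121121 (69397121 to 69397180), the HCA of f/f mouse 2430 had a log2 ratio of -1.34, or 39.4% of the control signal. The HCA of the other f/f mouse, 6199, had -0.85, or 55.6% of the control signal. The HCA of f/+ mouse 5901 had -0.52 (69.8%) and that of f/+ mouse 5884 had -0.03 (98.2%). The 6 HCCs lay between -0.16 and 0.08 at the same probe. Both f/f HCAs and the HCA of mouse 5901 were thus below every HCC, while the HCA of mouse 5884 lay among them. How many autosomal probes have this order in the ratio was not counted. In the Cy5 signal alone, both f/f HCAs lay below every HCC at 7.08% of autosomal probes.

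The unaffected livers had a smaller spread at A_53_P121121. The f/f livers had ratios of -0.14 and -0.42, the f/+ livers -0.08 and -0.16, and the R246S livers -0.19 to 0.01. The lowest liver was that of mouse 6199, and the other f/f liver lay within the R246S range. Floxed livers differed from R246S livers by -0.13 ± 0.11 (SE) at this probe, with an unadjusted p of 0.275 in limma. In limma over 220592 autosomal probes, the comparison of floxed with R246S livers called 0 of the 1817 region probes that could be tested, where 0.0435% of all probes were called (96 probes). At an unadjusted p under 0.05 it held 206 region probes, or 11.3%, beside 9.77% of all probes. The comparison of f/f with f/+ livers called 0 region probes, with 0% of all probes called. At an unadjusted p under 0.05 it held 71 region probes, or 3.91%, beside 2.99% of all probes. When the spread was taken from female mice alone, a fit added after the data were seen, the same comparison called 6 of 1818 region probes, all lower in f/f, where 0.00544% of all probes were called (12 of 220693). In that fit floxed against R246S livers called 7, all lower in floxed, beside 0.0245% of all probes. With scan day as a block the counts were 3 for f/f against f/+ (284 on the array) and 1 for floxed against R246S (67 on the array).

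**Figure D1:**
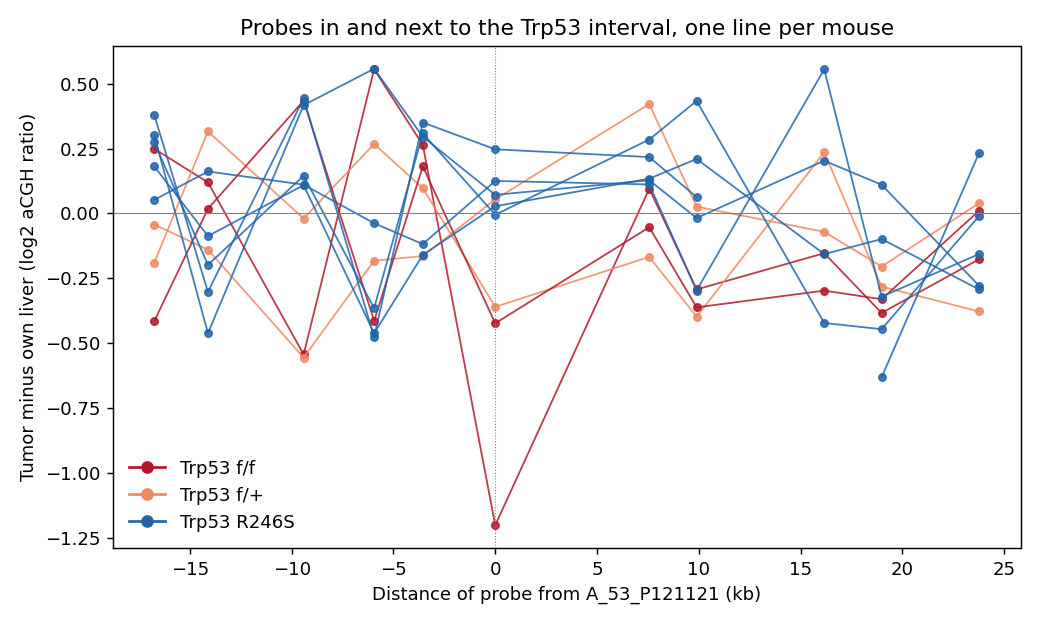
Difference of each tumor from the liver of the same mouse (vertical axis, log2 aCGH ratio) at the 5 probes of the Trp53 interval and the 3 nearest probes on either side, by distance from A_53_P121121 in kb. Each line is 1 mouse, with the 2 HCCs of mouse 6240 averaged, and a line breaks where a spot was left out. At distance 0 an f/f mouse stands at -1.20, and the R246S mice lie at -0.00 to 0.25.

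Taken against the liver of the same mouse, A_53_P121121 differed by -1.20 in the HCA of mouse 2430 and by -0.42 in that of mouse 6199. The HCA signal was thus 43.5% and 74.6% of the signal in the own liver. The differences were -0.36 in f/+ mouse 5901 and 0.05 in f/+ mouse 5884, and -0.00 to 0.25 in the 5 R246S mice. The 2 f/f mice and mouse 5901 lay below all R246S mice, and mouse 5884 did not. Over the 4 floxed mice the mean difference was -0.48 ± 0.14 (SE, limma), with an unadjusted p of 0.0025 and an adjusted p of 0.104 over all autosomal probes. The f/f mice alone gave -0.81 ± 0.19 (limma, unadjusted p = 0.000584, adjusted p = 0.251) and the f/+ mice -0.15 ± 0.19 (unadjusted p = 0.437). The R246S mice gave 0.09 ± 0.12, and the floxed mice differed from them by -0.58 ± 0.18 (limma, unadjusted p = 0.00579, adjusted p = 0.435). None of these passed the 0.05 threshold once adjusted. Without mouse 2430 the same limma contrast, the mean of the f/f and f/+ group values, was -0.29, with mouse 6199 alone for f/f.

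Set among the other probes, this difference was low but not alone. In mouse 2430 the difference at A_53_P121121 was the 8th lowest of the 1826 region probes, and 0.441% of autosomal probes were as low or lower. In mouse 6199 it ranked 85th of 1823 and 7.95% of autosomal probes were as low, and in mouse 5901 it ranked 330th of 1821 with 12.4%.

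The neighbors of A_53_P121121 gave mixed values in the f/f HCAs. The nearest probe on one side, A_53_P113868 (69393563 to 69393622), differed between HCA and own liver by 0.26 in mouse 2430 and 0.18 in mouse 6199. The nearest on the other side, A_67_P07386007 (69404685 to 69404744), differed by 0.10 and -0.05. At the first of these both f/f mice lay within the R246S range of -0.16 to 0.35, and at the second they lay just below the R246S range of 0.11 to 0.28. The outermost probes of the interval were A_53_P131694 (69391172 to 69391221) and A_53_P156358 (69407011 to 69407070). At A_53_P131694 the difference was 0.56 in mouse 2430 and -0.41 in mouse 6199, and the R246S mice ranged from -0.48 to 0.56. At A_53_P156358 it was -0.29 in mouse 2430 and -0.36 in mouse 6199, where the R246S mice ranged from -0.30 to 0.43. In mouse 6199 the difference of -0.42 at A_53_P121121 was thus matched in size by A_53_P131694 and by A_67_P07385938 in the flank, at -0.42. In the HCA of f/+ mouse 5901, A_53_P156358 (-0.40) and A_67_P02355848 in the flank (-0.38) were lower than A_53_P121121 (-0.36). No neighbor in mouse 2430 came near its -1.20, the lowest being -0.54 at A_67_P02355783. The remaining 4 probes of the interval and the 5 nearby probes with a full set of values had adjusted p-values of at least 0.228 in the HCAs of floxed mice. A_53_P164693 had a spot marked as an outlier in the HCC of mouse 6565 and was left out of that fit.

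Averaged over its 5 probes, the Trp53 interval did not separate the groups. Which of the 5 probes lie in the segment that Cre removes was not determined, so the average cannot decide on a loss limited to 1 probe. The interval was measured relative to the median of the region probes within 1 Mb on either side. In unaffected livers it stood at -0.14 ± 0.10 (SD, n = 4) in floxed mice and -0.05 ± 0.06 (SD, n = 5) in R246S mice, a difference of -0.09 (exact two-sided permutation test, p = 0.183). The tumor minus own liver was -0.10 and -0.19 in f/f mice 2430 and 6199 and 0.22 and -0.01 in f/+ mice 5884 and 5901. In R246S mice it ranged from -0.05 to 0.13. The floxed mice averaged -0.02 ± 0.18 (SD, n = 4) and the R246S mice 0.05 ± 0.08 (SD, n = 5), and the classes differed by -0.07 (exact two-sided permutation test, p = 0.429). The smallest p this test could give was 0.00794. The 4 HCAs alone gave p = 0.875 in an exact sign-flip test that cannot go below 0.125. Since the R246S and floxed samples are single animals, these p-values measure the spread between mice. Without A_53_P121121, a choice made after its values were seen, the difference between the classes was 0.03 (exact two-sided permutation test, p = 0.722).

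The flanks stayed close to the rest of chromosome 11 in each tumor. Relative to the own liver, the median region probe differed by -0.16 in the HCA of mouse 5884, -0.12 in that of mouse 5901 and -0.02 in each f/f HCA. The chromosome 11 probes outside the region had medians of -0.15, -0.11, -0.02 and -0.03 in the HCAs of mice 5884, 5901, 2430 and 6199. In HCCs the region medians were -0.08 to 0.14 and those of the rest of the chromosome -0.07 to 0.11. The mean of the flanks minus the mean of the rest of the chromosome was -0.01 to 0.01 in the floxed mice and -0.02 to 0.02 in the R246S mice. The classes differed by -0.01 (exact two-sided permutation test, p = 0.556).

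No single region probe was called as gained or lost in either tumor type. Of the 1800 region probes tested, limma called 0 in the HCAs of floxed mice, 0 in the HCCs of R246S mice and 0 between the classes, and on the whole array it called 0%, 0% and 0% of 218857 probes. At an unadjusted p under 0.05 the region held 159, 213 and 177 probes, or 8.83%, 11.8% and 9.83%, beside 19.2%, 20.1% and 9.07% of all probes. As a second description, the mean over each run of 5 neighboring probes was taken. The share of runs at or beyond 0.5 in either direction was 0% to 1.1% in the region for 9 of 10 tumors and 4.08% in the HCA of mouse 5884, where 74 of 1812 runs were low and 0 high. The same share over all autosomes was 0.725% to 9.71% and exceeded that of the region in every tumor.

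Between 1588 and 1710 kb from A_53_P121121, a block of 11 probes separated the 3 genotypes. It lay in the interval set for the Nlrp1 cluster and ran from 70985031 to 71107103 on chromosome 11, a span of 122 kb, between neighbors ending at 70976983 and starting at 71121491. The probes were taken as those of the interval at which the mean Cy5 signal of the f/f livers was over 2 log2 units below that of the R246S livers, so this gap describes the block and is no test of it. The first probe of the block, A_67_P07390472, was at its edge in size as well as in place, with a gap of -2.05. At the other 10 neither f/f liver was well above background, so the size of the gap is known there only as a bound, given with the Cy5 signal.

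The aCGH ratio of the block differed between R246S livers measured against male and against female control DNA. The sex of the control cannot be told apart here from the sex of the mouse or from the control DNA used. Averaged over the block, the f/f livers had log2 ratios of -1.56 and -1.38, from sample spots mostly not above background. The f/+ livers had 2.12 and 2.23. The female R246S livers had 2.78 and 2.90, and the male R246S livers, measured against female control DNA, had 0.79, 0.82 and 1.06. Among mice measured against the same male control, the 3 genotypes did not overlap and ran in the order f/f, f/+, R246S. The male R246S livers fell below the f/+ livers. With all 9 livers together, the Nlrp1 interval (24 probes) differed by -0.67 between floxed and R246S mice (exact two-sided permutation test, p = 0.254).

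The control channel itself differed at these probes. The Cy3 signal of male control DNA was dimmer than that of female control DNA by 0.80 to 2.70 log2 units at the 11 block probes, and only 73 of 143 spots with male control DNA were well above background, against 66 of 66 with female control DNA. At the 13 other probes of the interval the female minus male difference was -0.12 to 0.33. For this reason the Cy5 signal of the sample was also read on its own, as log2 centred on the autosomal median of its array, a choice made after the ratios were seen.

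**Figure D2:**
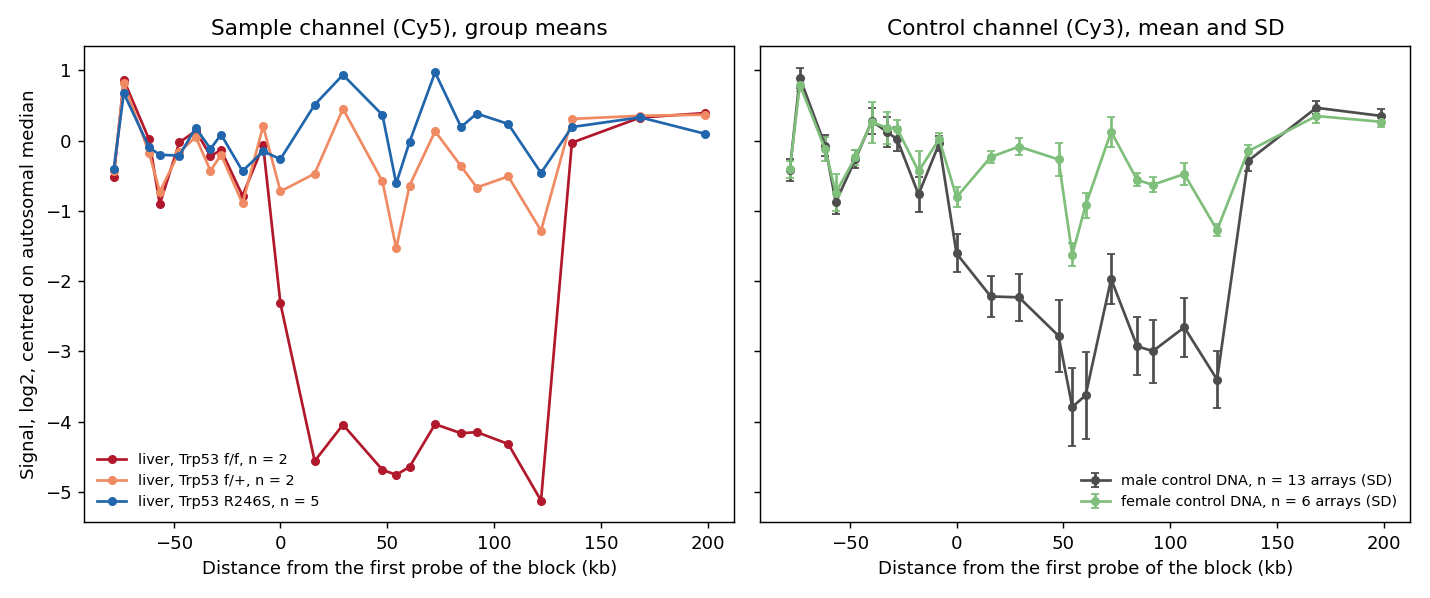
Signal (vertical axis, log2, centred on the autosomal median) at the 24 probes of the Nlrp1 interval by distance in kb from the first block probe. The left panel shows the sample channel as the mean of 2 f/f, 2 f/+ and 5 R246S livers, and the right panel the control channel as mean and SD over 13 arrays with male and 6 with female control DNA. Over the block the f/f livers lie lowest, at 10 of the 11 probes with no spot well above background, so that their depth there is not a measured value, and the male control is dimmer than the female.

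In the Cy5 signal, the R246S livers of both sexes came together. The block averaged 0.08 and 0.10 in female R246S livers and 0.15, 0.22 and 0.46 in male ones. The f/+ livers stood at -0.53 and -0.59. The f/f livers stood at -4.24 and -4.27, which is background for nearly all of their spots. No group overlapped another, though the gap between f/f and R246S livers was the rule that picked the block. Probe by probe, the livers were ordered f/f, f/+, R246S without overlap at 1.65% of region probes (30 of 1817). The same held at 0.50% of autosomal probes (1103 of 220592). The 30 include the 11 block probes, which were picked for f/f below R246S in this signal. The region share is therefore no test of the block, and the share without the block was not counted. The Nlrp1 interval as a whole then differed by -1.22 between floxed and R246S livers (exact two-sided permutation test, p = 0.00794, the smallest this test can give), a size that includes the f/f values at background.

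In f/f livers most of the block had no signal that could be told from background. Of 22 Cy5 spots, 1 was well above background in the f/f livers, against 22 of 22 in the f/+ livers and 55 of 55 in the R246S livers. At the 10 probes where both f/f livers were not well above background, the R246S livers were at least 4.89-fold to at least 14.6-fold brighter, depending on the probe. The bound sets the R246S mean against the dimmest signal on each f/f array that was still well above background. The f/+ livers had 48.2% to 72.7% of the R246S signal, with a median of 56.6% over the 11 probes. Within scan day 2, which held 1 floxed and 1 R246S liver, the f/f liver of mouse 6199 stood at background, with 1 of 11 spots well above it, and the R246S liver of mouse 6487 at 0.46.

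The tumors kept the order of the livers. They come from the mice in which the block was chosen, so they repeat the measurement and not the animals. The block averaged -4.16 and -3.75 in the f/f HCAs, -0.69 and -1.05 in the f/+ HCAs and 0.15 to 0.53 in the 6 HCCs. In the f/f HCAs 3 of 22 spots were well above background, in the f/+ HCAs 22 of 22 and in the HCCs 66 of 66. At 9 probes neither f/f HCA was well above background, and there the HCCs were at least 5.33-fold to at least 14.1-fold brighter.

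**Figure D3:**
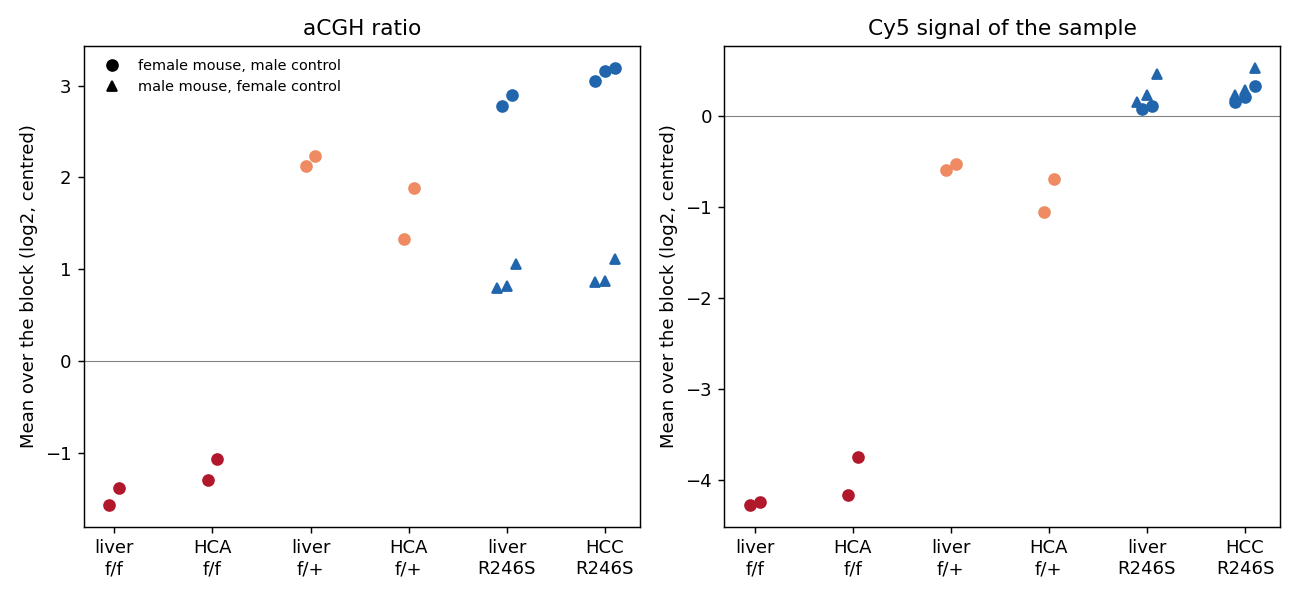
Mean over the 11 block probes on each array (vertical axis, log2, centred), as the aCGH ratio (left) and as the Cy5 signal of the sample (right), for livers and tumors of each genotype. Circles are female mice with male control DNA, and triangles are male mice with female control DNA. On the left the male R246S arrays lie at 0.79 to 1.11, and on the right all R246S arrays lie between 0.08 and 0.53, above both f/+ groups and both f/f groups.

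Relative to the own liver, the HCA of f/+ mouse 5901 was lower at all 11 block probes. Its mean difference in Cy5 signal was -0.46 ± 0.17 (SD over probes), where the median of the whole region differed by -0.12. Of the 15 region probes outside the block called lower in floxed livers (below), 10 were lower in this HCA too. The count was also 10 in the HCA of mouse 5884 and the HCC of R246S mouse 6602, and 3 to 8 in the other tumors. Over these 15 probes the median Cy5 difference in the HCA of mouse 5901 was -0.15, beside -0.12 over the region. The lowest run of 5 neighboring probes in this HCA lay outside the block, at -1.31 in the ratio, centred near 70399275. In the HCA of f/+ mouse 5884 the mean difference was -0.16 ± 0.25 (SD over probes) with 9 of 11 probes lower, where the region median also differed by -0.16. The HCCs differed from the own liver by 0.01 to 0.25. Since this comparison has 2 f/+ mice and 1 tumor from each, it was not tested. The same HCA, that of mouse 5901, was the f/+ tumor with the lower value at A_53_P121121, and a link between the 2 was not tested. The tumor of mouse 5901 was scanned on day 2 and its liver on day 1.

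Beyond the block, floxed and R246S livers differed at scattered probes on both sides of Trp53. In the Cy5 signal of the livers, limma called 32 of 1817 region probes between floxed and R246S mice, or 1.76%, where 0.256% of all autosomal probes were called (565 of 220592). Of the 32, 26 were lower in floxed livers and 6 higher. On chromosome 11 outside the region 0.395% of probes were called, and the share on the other autosomes ranged from 0.0599% on chromosome 10 to 0.842% on chromosome 15. The share in the region was above that of each whole autosome, and parts of like size on other chromosomes were not compared. The 32 probes include the 11 of the block, which were picked on this same signal. The count was 17 with female mice alone (364 on the array) and 13 with scan day as a block (218 on the array). It ranged from 20 without mouse 6565 to 115 without mouse 6487, and the count on the array then moved from 201 to 8588.

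The 15 lower probes outside the block spread over most of the region. They ran from A_53_P132029 at 62643937 to A_53_P140826 at 75333031. The median floxed minus R246S difference was -0.96, and the smallest was -0.64. The aCGH ratio was lower in floxed livers at all 15, although 0 of these passed in the ratio.

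The largest difference outside the block was at A_67_P07369048, which starts at 62800934, over 6 Mb from Trp53. Neither f/f liver was well above background there. The Cy5 signal was -0.67 and 0.16 in the f/+ livers and 0.42 to 0.51 in the R246S livers. The f/f livers were below both, and the R246S livers were at least 10.3-fold and the f/+ livers at least 6.27-fold brighter than the f/f livers. The adjusted p for floxed against R246S was 1.44e-05 (limma). In the tumors the f/f HCAs were again not well above background, the f/+ HCAs read -1.01 and 0.09 and the HCCs 0.27 to 0.70, at least 8.90-fold brighter than the f/f HCAs. It is named, as are the next probes, after its values were seen.

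Around Trp53 itself no probe was called. The nearest called probes were A_53_P147024, 1794 kb away on one side, and A_67_P02356481, 363 kb away on the other. At A_67_P02356481 the f/f livers read -1.52 and -1.41, the f/+ livers -0.57 and 0.57 and the R246S livers 0.23 to 0.52. The f/+ livers overlapped the R246S range here. Between these 2 probes lay 324 tested probes with no call, the 5 probes of the Trp53 interval among them.

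Of the 6 probes that were higher in floxed livers, 5 lay between 74179316 and 74358900. In female mice alone 0 of the 17 called probes were higher, and with scan day as a block 1 of 13 was. In the fit with all mice the floxed mice are all female and 3 of the 5 R246S mice male. At the 5 probes between 74179316 and 74358900, floxed livers exceeded R246S livers in the aCGH ratio by 0.36 to 0.91 in female mice. With all mice the range was 0.45 to 0.68. The difference was smaller in female mice only at A_67_P07397908 (0.36 against 0.68). Why the calls were lost was not tested. At A_67_P02363171, which starts at 74201829, the f/f livers read 0.90 and 1.09, the f/+ livers 0.61 and 0.74 and the R246S livers -0.08 to 0.23. The difference of floxed from R246S livers was 0.76 ± 0.10 (SE, limma, adjusted p = 0.0102). The next called probe, A_53_P146873 at 74377755, was lower in floxed livers, with -1.56 and -1.13 in f/f, -0.65 and -0.57 in f/+ and -0.03 to 0.53 in R246S livers.

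**Figure D4:**
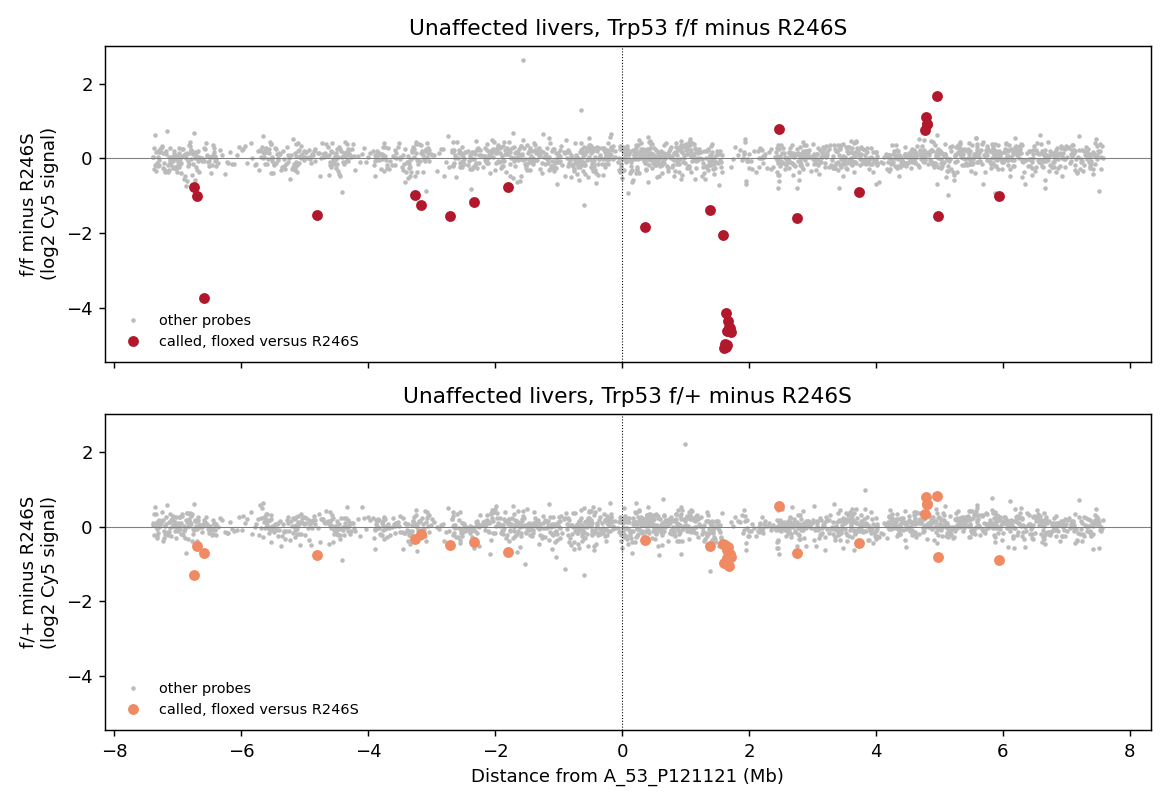
Cy5 signal of unaffected livers in f/f mice (top) and f/+ mice (bottom) minus R246S mice (vertical axis, log2), for every tested probe by distance in Mb from A_53_P121121. Filled circles are the 32 probes called between floxed and R246S livers. In the f/f panel the Nlrp1 block is the lowest group, with f/f spots not well above background at 10 of 11 probes, so its plotted depth is not a measured size, and in the f/+ panel its probes lie at -1.05 to -0.46.

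The f/f and f/+ livers also differed from each other in this signal. Limma called 11 region probes, all lower in f/f, or 0.605% where 0.00952% of all autosomal probes were called (21 of 220592). They were 10 of the 11 block probes and A_67_P07369048. The edge probe of the block, A_67_P07390472, had an adjusted p of 0.056. No f/f liver spot was well above background at these 11 probes, and the f/+ livers were at least 2.58-fold to at least 10.2-fold brighter. With scan day as a block the region count was 17, and the count on the array rose from 21 to 705. When only probes well above background on every array were kept, which takes out the block, 0 region probes were called (74 at an unadjusted p under 0.05).

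Most of the 26 lower probes were also lower in the f/f tumors. The Cy5 signal of both f/f HCAs was below that of every HCC at 24 of the 26 lower probes, against 7.08% of all autosomal probes. Outside the block this held for 13 of 15. The tumors come from the same mice as the livers in which the probes were called, so they repeat the measurement and not the animals.

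Probes that deviated from their surroundings in both tissues of a mouse were then counted for each animal. A probe was counted where it stood at least 0.5 from the running median of 21 neighboring probes, in the same direction in liver and tumor. Of the region probes, 1.15% and 1.32% did so in f/f mice 2430 and 6199, and 2.47% and 2.03% in f/+ mice 5884 and 5901. The female R246S mice 6240 and 6602 had 4.82% and 3.07%, and the males 6487, 6565 and 6642 had 0.877%, 0.438% and 2.35%. The R246S range contained that of the floxed mice. The autosomal shares were 1.28% to 1.43% in floxed mice and 0.472% to 2.16% in R246S mice. Floxed mice differed from R246S mice by -0.57 percentage points (exact two-sided permutation test, p = 0.579).

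The sign of these region probes also differed between mice. The split by sign over all autosomal probes was not counted, so it cannot be said whether it is particular to the region. In f/f mice 6 and 5 of them were above their surroundings and 15 and 19 below. In f/+ mice 31 and 30 were above and 14 and 7 below. In the female R246S mice 62 and 44 were above and 26 and 12 below. All 6 of these mice were measured against male control DNA. The bin from 71 to 72 Mb, which holds 10 probes of the block, had 0 above and 6 and 5 below in the f/f mice. It had 11 and 9 above in the f/+ mice. The block was picked for low Cy5 signal in the f/f livers, mostly at background, so its part in these counts is no test. The male R246S mice had 2, 1 and 2 above in that bin. No probe deviated in the same direction in all 9 mice.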

How the data were processed

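Genomic DNA of 10 liver tumors and 9 unaffected livers was measured on 2-colour CGH microarrays. Per the file headers the scans were processed with Feature Extraction 10.5.1.1 on the mm9 build, and the deposited log10 ratios are Cy5 (sample) over Cy3 (control), background-subtracted, spatially detrended and scaled by 1 dye factor per array. The deposited intensity columns are processed and median signals per spot, and the series-wide deposited table repeats these log10 ratios to within 5e-10. Here ratios were turned to log2 per the labels' dye assignment, spots marked as outliers (0.0668% to 0.291% of spots) were dropped, spots of a probe averaged and each array centred on its autosomal median.

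Each test across probes used limma 3.58.1 in R 4.3.3 over all autosomal probes with a value on every array of the fit (220592 for livers, 218857 for tumor minus own liver), with Benjamini-Hochberg adjustment at 0.05. Interval values were compared over mice with exact permutation tests. The 2 HCCs of mouse 6240 were averaged. Tumor and liver were paired because they came from 1 animal. The correlation of their deviations from the group means was 0.047 to 0.50 over mice. The fits and the exact tests were tested on simulated data.

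The probes and intervals were chosen with earlier results of these data known. The named probes are those of the Trp53 interval with the 3 nearest on either side, the Nlrp1 interval as a group, and up to 10 called region probes with the largest difference per contrast. The 2 intervals were placed from general knowledge of mm9. Gene annotation of mm9 was not used here, so the exon or intron of a probe is not given, and the fixed lists of neighboring genes, lipoxygenases, myosins, olfactory receptors and others were not analysed here. The files used hold no probe sequence. Alternatives covered background correction, source of the ratios, centring, dim and outlier spots, baseline, pairing, tumors of mouse 6240, sex, scan day, thresholds and each mouse left out. The number of arrays limits the precision.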

Additional observations from a re-analysis of the deposited data

Results flagged for a closer look

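Among the 4 floxed mice, the share of autosomal probes that deviated from their surroundings in both tissues was 1.43% in f/+ mouse 5884 and 1.28% to 1.29% in the other 3 mice, which set that mouse apart in Dixon's test. Chance sets apart about 1 in 20 groups.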

How the results depend on the processing

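No result for the ratios of the Trp53 interval passed its threshold under any alternative run. The 4 HCAs minus own liver turned from -0.02 to 0.00 with a baseline of 0.5 Mb (0.00176), to 0.01 with the median of the interval (0.00987) and to 0.08 (0.0764) without A_53_P121121, which also turned the difference between the classes from -0.07 to 0.03 (0.0309). Within scan day 2 the interval in livers differed by 0.08 (0.0768) between 1 floxed and 1 R246S mouse. The Nlrp1 interval differed by -0.21 with normexp (exact permutation test, p = 0.0476) and by -1.22 in the Cy5 signal, which was added after the data were seen.

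In the ratio, limma called 0 region probes in each comparison, and some alternatives changed this region count. The count over all autosomal probes follows each region count in brackets. For floxed against R246S livers the region count became 7 (54) in female mice and 1 (67) with scan day as a block. In the Cy5 signal it became 32 (565), and 17 (364) in females. For f/f against f/+ livers it became 6 (12) in female mice and 3 (284) with scan day as a block. In the Cy5 signal it became 11 (21), and 11 (24) in females. These f/f against f/+ fits were all added after the data were seen. The main tumor fits tested 1800 region probes and 218857 probes on the array. For the HCAs the region count became 3 (957) with no background correction and 2 (2204) with centring on chromosome 11. It was 9 (4634) at an adjusted p of 0.1 and 1 (14) in the Cy5 signal. For the HCCs it became 14 (6023) with no background correction and 2 (1448) with centring on chromosome 11. It was 19 (7648) at an adjusted p of 0.1. With probes well above background it was 1 (1655), and with tumor 4 of mouse 6240 it was 2 (1279). The 32 (565) probes of the Cy5 signal became 17 (364) in females and 13 (218) with scan day as a block. With probes well above background they became 16 (505). The 11 (21) probes between f/f and f/+ livers became 17 (705) with scan day as a block and 0 (7) with probes well above background.

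Leaving out each mouse gave -0.12 to -0.05 (-0.0467) for the Trp53 interval in livers, -0.15 to -0.01 (-0.0137) for the tumors between classes, -0.10 (-0.0979) to 0.04 (0.0388) for the HCAs, where it turned without mouse 2430 or 6199, and -0.95 to -0.37 for the Nlrp1 interval. It gave -0.01 (-0.0123) to -0.00132 for the flanks and -1.04 to 0.06 (0.0558) percentage points for the variable probes, which turned without mouse 6240. The counts were 0 to 3 and 0 to 8 in livers (8 without mouse 5901), 0 to 17 in HCAs (17 without mouse 5901), 0 to 10 in HCCs (10 without mouse 5884 or 5901), 0 to 2 between tumor classes, and 20 to 115 and 11 to 23 in the Cy5 signal. The causes were not tested.

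With no replicate block, that is without pairing tumor and liver, the HCAs gave -0.02 (exact permutation test, p = 0.829), the classes differed by -0.08 and 0 region probes were called in each tumor comparison, so the pairing changed no call. At the Nlrp1 block, signal over background limits the f/f values to bounds.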
